A study of Mus musculus with 72 samples.

Results

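Complement and coagulation are the plasma protease cascades that hepatocytes supply to the blood, and the genes described here are 39 members of them with their liver-secreted partners: complement proteases, terminal components and inhibitors, clotting factors, the fibrinogen chains, anticoagulants, plasminogen with its inhibitor, and the abundant liver-secreted proteins Kng1, Ahsg and Vtn. Each gene was followed through the probe set annotated with its symbol alone, and the probe set with the highest mean was used where there were several. This gave 35 of the 39, among 22180 genes with such a probe set, and C1s1 was the 1 member with a choice to make. C3 and Cpb2 had no probe set under their own symbol, Masp2 was listed only together with Tardbp, and Klkb1 only together with Cyp4v3, so these 4 are not analysed here. All 35 measured members passed the filter on low values, which kept 13308 genes.

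Transcripts were profiled in livers of mice kept in 12 h light and 12 h dark, at zeitgeber time (ZT, counted in hours from lights on) 0, 4, 8, 12, 16 and 20. The SIRT6 cohort, with the strain label 129 mixed, compared wild type (WT) mice with mice labelled as having a liver-specific SIRT6 knockout (KO). The SIRT1 cohort, of strain C57BL/6, compared WT mice with mice labelled as having a liver-specific SIRT1 KO. Each of the 24 groups (cohort, genotype and time) held 3 arrays, so each genotype had 18 arrays per cohort and each cohort had 36. The sources used here name neither the promoter that drove the deletion nor the sex or age of the mice, and they do not tell whether replicates were separate animals, so the p-values rest only on the spread among these samples, which may be technical. SIRT6 and SIRT1 are NAD-dependent deacylases, and the series asks what each contributes to daily gene expression.

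As background, complement is triggered through antibody-bound C1, through lectins such as the mannose-binding lectins, or through spontaneous turnover that factor B amplifies. All these routes lead to a membrane attack complex built from C5b, C6, C7, C8 and C9. In coagulation, tissue factor with factor VII starts a chain that runs through factor X and prothrombin to thrombin, which turns fibrinogen into fibrin, while plasmin dissolves the clot and antithrombin and protein C restrain the chain. Several of these genes are known acute phase genes, which hepatocytes raise under inflammatory cytokines.

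Values are probe set intensities taken as log2(intensity + 16), so a difference of 1 on this scale is close to a doubling of intensity for bright probe sets and more than a doubling for dim ones, so the scale understates the change of dim ones. Array medians ran from 43.9 to 52.9 (intensity) for SIRT6 and from 44.4 to 53.8 for SIRT1, and precision is limited by how many arrays there are. The probe sets of the targeted genes showed no loss of transcript under either label, although Sirt6 separated the labelled groups of its cohort. Sirt6 measured 7.32 ± 0.18 (SD, n = 18) in WT and 7.89 ± 0.10 (n = 18) in KO-labelled livers of its cohort, with all 18 KO-labelled arrays above every WT array (limma adjusted p = 8.89e-09), which is the direction opposite to a loss of transcript. Sirt1 measured 8.74 ± 0.18 (n = 18) in WT and 8.74 ± 0.11 (n = 18) in KO-labelled livers of its own cohort (limma adjusted p = 0.961). The sources used here do not say whether these probe sets fall inside the deleted exons, so they do not check the deletions, and every KO direction below rests on the labels. The hepatocyte markers were all measured (8 of 8 tested by limma, 0 called in either cohort, 1 in each at an unadjusted p under 0.05). Of these 8, 7 had a lower KO-labelled mean in the SIRT6 cohort (median difference -0.03) and 4 in the SIRT1 cohort (median difference -0.00).

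A subset of 12 of the 36 arrays in the SIRT6 cohort stood apart. Lcn2, an acute phase gene that is no member, lay between 12.05 and 12.73 (log2) in these 12 arrays and between 7.38 and 10.79 in the other 24, a gap of 1.26. Lcn2 in the SIRT1 cohort stayed between 6.61 and 9.58. The 12 arrays were 6 WT (ZT4 replicate 3, ZT8 replicates 1 and 3, ZT12 replicate 1, ZT16 replicates 1 and 2) and 6 KO-labelled (ZT0 replicate 3, ZT4 replicate 1, ZT8 replicates 2 and 3, ZT12 replicate 1, ZT16 replicate 1). None came from ZT20 in either genotype, and they were spread over all 3 replicate numbers. The summed intensity of the 25 measured genes of an acute phase list, which includes Lcn2, was 81145.5 to 128919 in them and 57847 to 81800 in the other 24. These ranges overlapped, and through Lcn2 the sum is partly set by the choice of the arrays. The summed intensity of 11 Kupffer cell markers was 7462 to 14911 against 1954 to 9602, and these ranges overlapped. That of 8 lymphocyte markers was 1146 to 4357 against 341 to 1703, which overlapped too. That of 5 bile duct markers was 687 to 1161 against 286 to 605, with no overlap. The hepatocyte marker sum leaned lower, at 47733 to 55183 against 50654 to 59600. Platelet and neutrophil marker sums overlapped as well, at 266 to 503 against 187 to 911 and 220 to 484 against 123 to 393. So did the stellate and endothelial marker sums, at 1543 to 2586 against 1079 to 2173 and 4866 to 7388.5 against 4569 to 6439. Some sums include markers below the filter on low values: Krt7 and Cftr (bile duct), Cd2, Cd79a and Ms4a1 (lymphocyte), and Pf4 (platelet). The neutrophil sum includes S100a8, S100a9, Ly6g and Mpo, also below it. The bile duct markers Krt19 and Epcam were close to the filter cut of 6.005, at 6.17 and 6.32 in SIRT6 WT. The labels do not separate these 12 arrays from the others, and the results of the SIRT6 cohort were also computed without them. Of single arrays, WT ZT12 replicate 1 correlated least with its replicates (r = 0.956 with the nearer one), and without it C6, Masp1 and F7 were still called while Serpinf2 was not (limma adjusted p = 0.0558).

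Among the members, 3 complement genes separated these 12 arrays from the rest. C2, the serine protease that completes the classical and lectin C3 convertase, lay between 9.94 and 10.38 in the 12 arrays and between 9.06 and 9.74 in the other 24. Cfb, factor B of the alternative pathway, lay between 12.23 and 12.48 in the 12 and between 11.70 and 12.09 in the others. C4bp, the inhibitor that dissociates the classical convertase, lay between 12.00 and 12.35 against 11.46 to 11.84. These 3 of 35 members had all 12 arrays above all of the other 24 with no overlap, as did 1.36% of the 13308 genes, and 0 members had them all below. C1s1, the C1s protease, overlapped but leaned the same way, at 9.43 to 10.23 against 8.52 to 9.63. Coagulation members also overlapped and leaned higher, among them F12, at 11.80 to 11.96 against 11.58 to 11.82. Pros1 was at 9.41 to 9.94 against 8.96 to 9.72, and Serpind1 at 12.47 to 12.73 against 12.35 to 12.56. WT and KO-labelled arrays were found on both sides of each gap: C2 had a median of 10.13 in the 6 WT and 10.09 in the 6 KO-labelled arrays among the 12, and of 9.46 and 9.27 in the remaining 12 WT and 12 KO-labelled arrays. Not all members leaned higher. C8b overlapped and leaned lower, at 11.43 to 12.09 against 11.75 to 12.19. So did Proc, at 11.25 to 11.52 against 11.38 to 11.68, and Kng1, at 11.34 to 11.76 against 11.54 to 11.86. The fibrinogen genes Fga, Fgb and Fgg also overlapped and leaned lower in the 12. Their WT medians were 11.96, 12.60 and 12.62 there, against 12.20, 12.77 and 12.81 in the other WT arrays. Their KO-labelled medians were 11.96, 12.65 and 12.64, against 12.15, 12.74 and 12.82.

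The sequences below are shown because their genes carry the results on rhythm, on shared variation and on the KO labels. They are the 250 bases before the annotated start of each gene in RefSeq (build GRCm38.p6), read 5′ to 3′ on the strand of the gene. Capitals mark matches to the motifs searched, namely TTCNNNGAA (STAT), TTGCNNAA (C/EBP), GTTAAT (HNF1, contained in the full HNF1 palindrome) and AGGTCA (nuclear receptors, contained in the longer RORE motif), each on both strands. Fga lies at chr3:83025903-83026152, Fgb at chr3:83049864-83050113 (minus strand), Fgg at chr3:83007474-83007723, Serpinf2 at chr11:75439502-75439751 (minus strand), F7 at chr8:13025784-13026033 and C6 at chr15:4726960-4727209.
Fga: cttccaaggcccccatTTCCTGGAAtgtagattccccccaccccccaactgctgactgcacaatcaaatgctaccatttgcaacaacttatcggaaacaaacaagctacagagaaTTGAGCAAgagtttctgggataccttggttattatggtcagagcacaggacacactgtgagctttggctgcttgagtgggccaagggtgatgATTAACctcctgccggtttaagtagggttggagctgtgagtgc
Fgb: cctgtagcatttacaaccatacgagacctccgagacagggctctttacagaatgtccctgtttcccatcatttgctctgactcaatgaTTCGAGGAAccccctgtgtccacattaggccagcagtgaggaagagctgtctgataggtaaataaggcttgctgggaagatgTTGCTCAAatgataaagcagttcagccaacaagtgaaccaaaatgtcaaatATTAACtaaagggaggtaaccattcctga
Fgg: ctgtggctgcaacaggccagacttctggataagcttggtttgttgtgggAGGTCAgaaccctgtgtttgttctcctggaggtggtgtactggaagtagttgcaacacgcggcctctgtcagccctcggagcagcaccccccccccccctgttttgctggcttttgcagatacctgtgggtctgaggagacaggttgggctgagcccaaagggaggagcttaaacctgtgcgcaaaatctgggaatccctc
Serpinf2: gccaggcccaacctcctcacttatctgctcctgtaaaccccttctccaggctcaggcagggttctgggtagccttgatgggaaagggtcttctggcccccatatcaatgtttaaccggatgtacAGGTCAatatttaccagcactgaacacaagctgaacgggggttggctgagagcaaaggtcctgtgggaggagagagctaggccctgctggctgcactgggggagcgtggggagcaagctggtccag
F7: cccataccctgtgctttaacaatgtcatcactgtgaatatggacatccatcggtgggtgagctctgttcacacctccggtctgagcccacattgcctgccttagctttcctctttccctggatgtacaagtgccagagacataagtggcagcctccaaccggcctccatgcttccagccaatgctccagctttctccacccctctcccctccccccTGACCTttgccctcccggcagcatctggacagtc
C6: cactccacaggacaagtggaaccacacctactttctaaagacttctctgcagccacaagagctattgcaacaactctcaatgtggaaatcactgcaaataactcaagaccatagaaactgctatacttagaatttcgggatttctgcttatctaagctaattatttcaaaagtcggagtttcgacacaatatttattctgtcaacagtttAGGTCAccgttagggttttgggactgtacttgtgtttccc

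The promoters of Fga and Fgb, which encode the alpha and beta chains of fibrinogen, each held 1 match to 3 of these motifs in the same order. In Fga the first bases of the STAT, C/EBP and GTTAAT matches lay 234, 135 and 43 bases before the start, and in Fgb they lay 162, 80 and 29 bases before it. Fgg, the gamma chain gene, held none of these 3 in the window, and its AGGTCA match began 201 bases before the start. Serpinf2, F7 and C6 held AGGTCA with its first base 126, 34 and 40 bases before the start. RefSeq windows of 300 bases (250 before to 50 after the start) were matched for 27 of the 35 measured members, with 29 windows in all. AGGTCA was found in 11 of these 29 windows (37.9%), and in 16.3% of all 32851 windows. TTCNNNGAA was found in 7 (24.1%, against 8.3% of all), TTGCNNAA in 9 (31.0%, against 10.8%) and GTTAAT in 9 (31.0%, against 7.1%). The E-box CACGTG was found in 0 of the 29, against 7.15% of all windows. The D-box forms TTATGTAA and TTACGTAA, the RORE, the HNF4 motif CAAAGTCCA and the full HNF1 palindrome were also found in 0 of the 29, against 0.938%, 0.119%, 0.061%, 0.475% and 0.009% of all. A match is a description of letters in this window and does not show a bound site.

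The first comparison asked which members differed between KO-labelled and WT livers when averaged over the 6 times. For SIRT6, 4 of 35 members were called at an adjusted p of 0.05 (limma, Benjamini-Hochberg over 13308 genes), beside a background of 6.61% of all genes. C6 and Masp1 were lower in the KO-labelled livers (2 members, background 3.22%), and F7 and Serpinf2 were higher (2 members, background 3.39%). The call of C6 in this contrast was known when C6 was chosen, so it is given as a description. With array medians centred, 1 member was higher and 2 were lower. For SIRT1, 1 of 35 was called, F7, beside a background of 2.27%, or 1.06% for genes called higher. With array medians centred, 6 members were higher in the SIRT1 cohort (Cfb, F2, F7, Proc, Serping1 and Vtn) and 0 lower, and the median over all genes moved to 0.06. The share of all genes called with array medians centred is not given here for either cohort. These counts, and the members named below as passing under that scaling, are therefore not read as particular to the members. The members' median difference was -0.00 for SIRT6, with 17 members higher and 18 lower, and -0.01 for SIRT1, with 16 higher and 19 lower. Over all genes tested the medians were 0.00 and -0.00. At an unadjusted p under 0.05 the counts were 7 members under the SIRT6 label and 6 under the SIRT1 label, beside 19.3% and 18% of all genes. Because these are whole-liver samples, fewer cells of a type and less RNA per cell cannot be told apart.

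**Figure D1:**
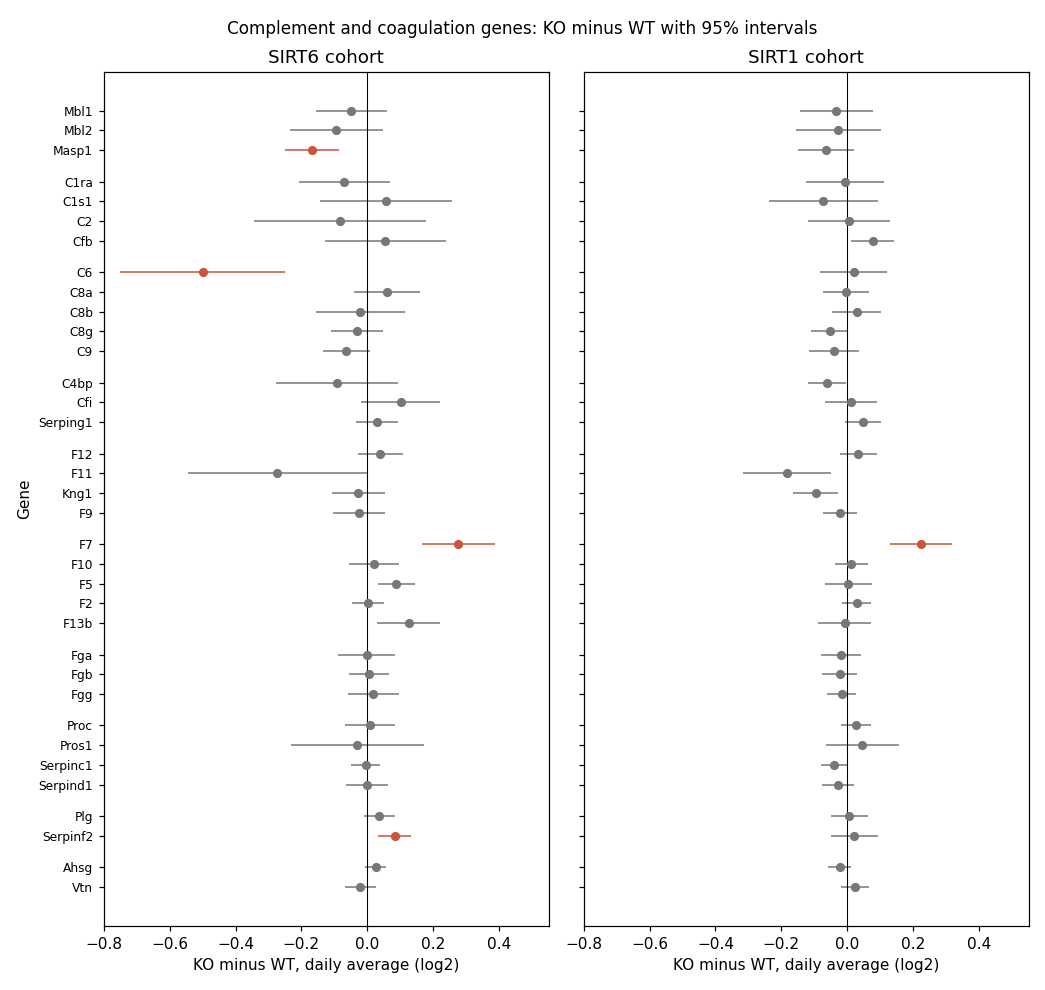
KO minus WT on the log2(intensity + 16) scale, averaged over 6 times, for the 35 measured genes ordered by role, in the SIRT6 cohort (left) and the SIRT1 cohort (right); points are estimates, bars are 95% confidence intervals, and red marks an adjusted p under 0.05. C6 at -0.50 and F7 at 0.28 stand farthest from 0 among the called members on the left, and F7 at 0.22 is the 1 red point on the right.

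Among the lectin pathway genes, Masp1 was lower under the SIRT6 label. Masp1 encodes a protease that travels with the mannose-binding lectins, and its 18 WT arrays had a lowest value of 10.90, a median of 11.10 and a highest value of 11.35. The 18 KO-labelled arrays ran from 10.78 through a median of 10.92 to 11.14. The ranges overlapped, with 8 KO-labelled arrays below every WT array, 17 of 18 below the WT mean of their time, and the KO-labelled mean lower at 6 of 6 times. Masp1 fell by 0.17 ± 0.04 (SE, n = 18 per genotype, limma adjusted p = 0.00909). It was -0.21 when the 12 arrays high in Lcn2 were left out (limma adjusted p = 0.0151). Under the SIRT1 label it was -0.06 (limma adjusted p = 0.411), and the difference between the 2 KO effects was -0.10 (limma adjusted p = 0.322). The lectins themselves, Mbl1 and Mbl2, were not called, at -0.05 and -0.09 under SIRT6 and -0.03 and -0.03 under SIRT1.

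C1ra, C1s1, C2 and Cfb, the proteases of the classical and alternative pathways, were not called in either cohort. Their differences ran from -0.08 to 0.06 under SIRT6 and from -0.07 to 0.08 under SIRT1. Cfb had the highest difference of the members not called in the SIRT1 cohort (0.08, limma adjusted p = 0.187), and it passed the test there with array medians centred. Their spread within groups was an SD of 0.40 for C2 and 0.28 for Cfb in the SIRT6 cohort, which holds the 12 arrays above, and 0.19 and 0.095 in the SIRT1 cohort. With those 12 arrays left out the differences were -0.18 for C2 (limma adjusted p = 0.290) and 0.07 for Cfb (limma adjusted p = 0.544).

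C6 was the member with the largest difference. It encodes the terminal component that binds C5b and starts the membrane attack complex. The call of C6 under the SIRT6 label was known when C6 was chosen. The values and p-values given for C6 under that label are therefore a description and no independent test. Its 18 WT arrays of the SIRT6 cohort had a lowest value of 10.76, a median of 11.40 and a highest of 11.80, and the 18 KO-labelled arrays had 9.92, 10.95 and 11.49. The ranges overlapped, although 8 KO-labelled arrays were below every WT array and 16 of 18 were below the WT mean of their time. WT livers averaged 11.36 ± 0.28 (SD, n = 18) and KO-labelled livers 10.86 ± 0.43 (n = 18). The difference was -0.50 ± 0.12 (SE, 95% interval -0.75 to -0.25, limma adjusted p = 0.0109), which is 1.41-fold lower. The KO-labelled mean was lower at 6 of 6 times, from -0.19 at ZT0 to -0.67 at ZT8, and no single time was called (the lowest limma adjusted p was 0.581).

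C6 was also read on each side of the gap in Lcn2. Among KO-labelled arrays C6 lay between 11.02 and 11.49 in the 6 arrays high in Lcn2 and between 9.92 and 11.42 in the other 12, where the median was 10.63. Among WT arrays it lay between 11.33 and 11.80 in the 6 and between 10.76 and 11.54 in the other 12, with a median of 11.32 there. C6 without the 12 arrays was at -0.68 ± 0.12 (SE, 12 arrays per genotype, limma adjusted p = 0.00493). With the 12 arrays kept and their cluster as a block the difference was -0.50 ± 0.09 (limma adjusted p = 0.000671). Leaving out any single array kept the call, with differences from -0.55 to -0.43.

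C6 in the SIRT1 cohort showed no such gap. The 18 WT arrays ran from 11.07 through a median of 11.36 to 11.70, and the 18 KO-labelled arrays ran from 11.08 through 11.41 to 11.71, so the ranges lay almost on each other. The difference was 0.02 ± 0.05 (SE, limma adjusted p = 0.870), with a sign that turned to -0.03 under array weights and to -0.00 without WT ZT4 replicate 3. The difference between the 2 KO effects was called for C6 alone among the 35 members, at -0.52 ± 0.13 (SE, limma over 72 arrays, adjusted p = 0.0125), beside a background of 5.76%. It contains the SIRT6 effect that was known when C6 was chosen, so for C6 it too is a description and no independent test. At an unadjusted p of 0.05 it was called for 3 members (C6, F13b and Ahsg), beside 19.6% of all genes. The cohorts differ in strain as well as in the gene targeted, so targeted gene, strain and cohort cannot be told apart in this difference. The other terminal components, C8a, C8b, C8g and C9, were not called in either cohort. Their differences lay between -0.06 (C9) and 0.06 (C8a) in the SIRT6 cohort, and between -0.05 (C8g) and 0.03 (C8b) in the SIRT1 cohort.

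**Figure D2:**
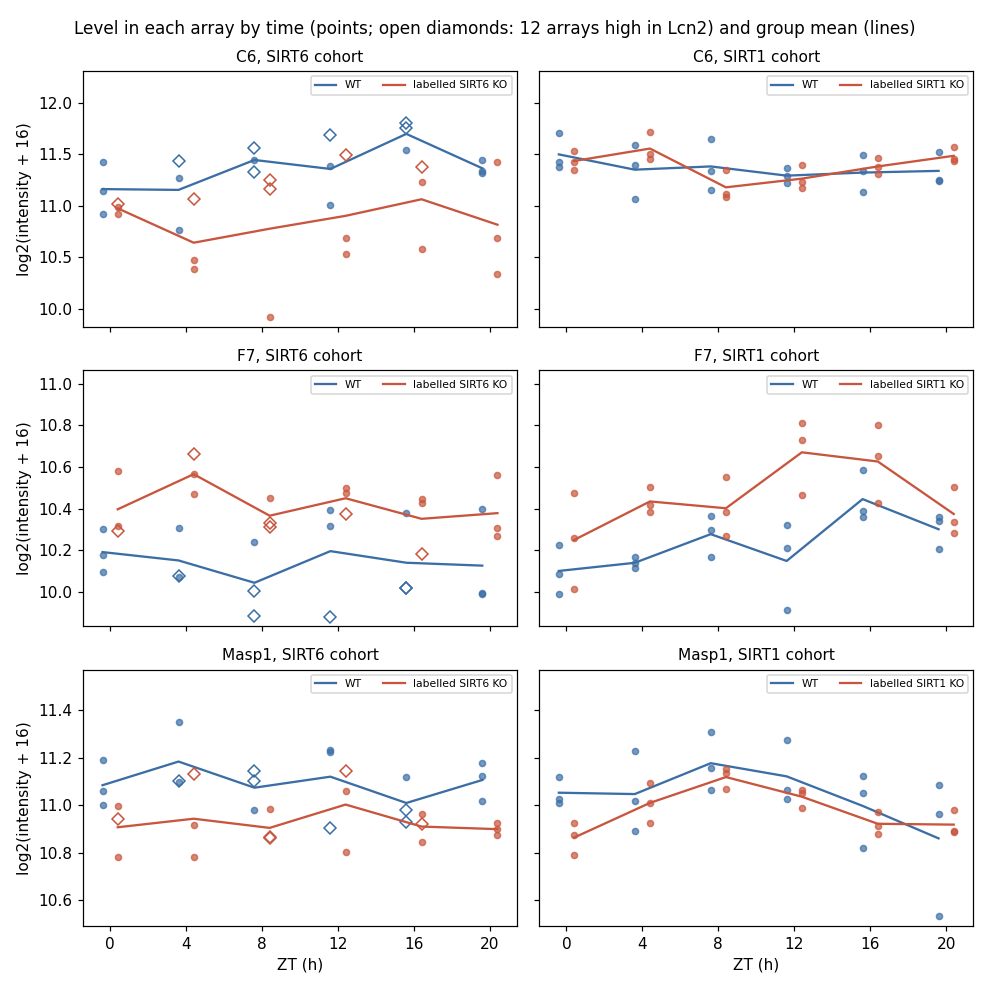
Level of C6, F7 and Masp1 (log2(intensity + 16)) against ZT in hours, in the SIRT6 cohort (left) and SIRT1 cohort (right); points are single arrays, open diamonds are the 12 arrays high in Lcn2, and lines join the means of 3 arrays for WT (blue) and KO-labelled livers (red). The red C6 line lies below the blue one at 6 of 6 times on the left, and the red F7 line lies above the blue one at 6 of 6 times in both cohorts.

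The complement inhibitors C4bp, Cfi and Serping1 were not called in either cohort. C4bp was at -0.09 in the SIRT6 cohort (limma adjusted p = 0.678). With the cluster of the 12 arrays as a block, which left the estimate at -0.09, it passed the test (limma adjusted p = 0.0353), and without those arrays it did not (-0.04, limma adjusted p = 0.632). Cfi, factor I, which cleaves C3b and C4b, was at 0.10 and 0.01 in the SIRT6 and SIRT1 cohorts. Serping1, the C1 inhibitor, was at 0.03 and 0.05, and it passed the test in the SIRT1 cohort with array medians centred.

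The contact and intrinsic factors F12, F11, Kng1 and F9 were not called in either cohort. F11, the zymogen of factor XIa, had the most negative difference of the members not called in both cohorts, at -0.27 ± 0.13 (SE, limma adjusted p = 0.255) and -0.18 ± 0.06 (limma adjusted p = 0.130). Its KO-labelled mean was lower at 6 of 6 times in both. The arrays overlapped broadly, from 8.96 to 10.83 in WT and from 9.26 to 10.62 in KO-labelled livers of the SIRT6 cohort. With the cluster of the 12 arrays as a block F11 passed the test in the SIRT6 cohort at the same estimate (limma adjusted p = 0.0356), and without those arrays it did not (-0.34, limma adjusted p = 0.115). Kng1, the kininogen that carries bradykinin, was at -0.03 and -0.10 (limma adjusted p = 0.809 and 0.118).

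F7 was the member called in both cohorts, and in 1 direction. It encodes factor VII, the vitamin K-dependent protease that binds tissue factor. The 18 WT arrays of the SIRT6 cohort had a lowest value of 9.88, a median of 10.08 and a highest of 10.40, and the 18 KO-labelled arrays had 10.18, 10.44 and 10.66. Of the KO-labelled arrays 10 were above every WT array, and 18 of 18 were above the WT mean of their time. F7 rose by 0.28 ± 0.05 (SE, n = 18 per genotype, limma adjusted p = 0.0015), which is 1.21-fold. The estimate without the 12 arrays high in Lcn2 was 0.21 ± 0.06 and did not pass the test (limma adjusted p = 0.0712). In the 6 WT arrays among the 12, F7 lay between 9.88 and 10.07, and in the other 12 WT arrays between 9.99 and 10.40.

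In the SIRT1 cohort the 18 WT arrays for F7 ran from 9.91 through a median of 10.22 to 10.59, and the 18 KO-labelled arrays ran from 10.02 through 10.45 to 10.81. The overlap was wider than in the SIRT6 cohort, with 4 KO-labelled arrays above every WT array and 14 of 18 above the WT mean of their time. F7 rose by 0.22 ± 0.05 (SE, n = 18 per genotype, limma adjusted p = 0.0106), which is 1.17-fold, with the KO-labelled mean higher at 6 of 6 times. The widest gap was at ZT12, where KO-labelled livers were at 10.67 ± 0.18 (SD, n = 3) and WT livers at 10.15 ± 0.21 (n = 3). That single time did not pass the correction over genes and times (limma adjusted p = 0.197). The 2 KO effects on F7 differed by 0.05 (limma adjusted p = 0.747). The cohorts share no samples, and 20 of 13308 genes (0.15%) were called in both cohorts in 1 direction. Of the 35 members 24 had 1 sign in both cohorts, beside 47.7% of all genes.

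The common pathway genes F10, F5, F2 and F13b were not called in either cohort. F5, the cofactor of factor Xa, was at 0.09 ± 0.03 in the SIRT6 cohort (SE, limma adjusted p = 0.0544), with 16 of 18 KO-labelled arrays above the WT mean of their time, and it passed the test under quantile normalization and with the 12-array cluster as a block. F13b, the carrier subunit of factor XIII, was at 0.13 there (limma adjusted p = 0.107), with 17 of 18 arrays above. Both were near 0 in the SIRT1 cohort, F5 at 0.00 and F13b at -0.01. F10 and F2, factor X and prothrombin, lay between 0.00 and 0.03 in both cohorts, and F2 passed the test in the SIRT1 cohort with array medians centred.

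The fibrinogen chains Fga, Fgb and Fgg did not differ by genotype beyond the test, with differences from -0.00 to 0.02 in the SIRT6 cohort and close to -0.02 for all 3 in the SIRT1 cohort. The anticoagulants Proc, Pros1, Serpinc1 and Serpind1 ran from -0.03 to 0.01 under SIRT6 and from -0.04 to 0.05 under SIRT1, and were not called. Ahsg and Vtn, fetuin-A and vitronectin, lay between -0.02 and 0.02 in both. Proc and Vtn passed the test in the SIRT1 cohort with array medians centred.

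Serpinf2, the antiplasmin that blocks plasmin, was called in the SIRT6 cohort at 0.08 ± 0.02 (SE, limma adjusted p = 0.0411). Its 18 WT arrays ran from 12.24 through a median of 12.43 to 12.61, and the 18 KO-labelled arrays ran from 12.33 through 12.53 to 12.77. The ranges overlapped for most arrays, with 3 KO-labelled arrays above every WT array and 16 of 18 above the WT mean of their time. The call was lost when any of 23 of the 36 arrays was left out (limma adjusted p from 0.00742 to 0.0718 over the 36), without the 12 arrays high in Lcn2 (0.06, limma adjusted p = 0.434), and among other settings with centred array medians, with no filter on low values and in a fit of all 72 arrays. In the SIRT1 cohort Serpinf2 was at 0.02 (limma adjusted p = 0.773), and Plg, plasminogen, was at 0.04 and 0.01 in the SIRT6 and SIRT1 cohorts.

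The members not called were measured closely. Under the SIRT6 label the 31 such members lay between -0.27 and 0.13, and in the SIRT1 cohort the 34 lay between -0.18 and 0.08. The 95% interval of each of them stayed within a 1.5-fold change in either direction. Within groups the members' median SD was 0.116 for SIRT6 and 0.101 for SIRT1, beside 0.173 and 0.158 for all genes tested, and 28 of 35 members spread more in the SIRT6 cohort. The widest in the SIRT6 cohort were F11 at 0.42, C2 at 0.40 and C6 at 0.39, and the narrowest was Ahsg at 0.029. C4bp spread by 0.28 there and by 0.08 in the SIRT1 cohort.

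Without the 12 arrays high in Lcn2, 2 of 35 members were called in the SIRT6 cohort (limma, C6 and Masp1, both lower) beside a background of 4.19%. With their cluster as a block 7 were called (F5, F7 and Serpinf2 higher, C4bp, C6, Masp1 and F11 lower) beside a background of 10.8%. At single times limma called 0 of 35 members in the SIRT6 cohort (background 0.473%) and 0 in the SIRT1 cohort (background 0%). At an unadjusted p under 0.05 at 1 or more times these counts were 7 and 14, beside 32.7% and 38.6% of all genes.

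The next comparison asked which members followed a 24 h rhythm, fitted as a cosine in each set of 18 arrays, where the amplitude is the fitted peak minus the trough on the log2 scale. In the SIRT6 cohort 2 of 35 members were called in WT (background 10.1%) and 2 in KO-labelled livers (background 10.6%), Fga and Serpinf2 in both. In the SIRT1 cohort 7 were called in WT (background 18.3%) and 10 in KO-labelled livers (background 23.2%). In all, 13 members were called in 1 or more sets (background 35.3%), 2 in all 4 sets (background 3.19%), and 22 in none. These counts depended on the scaling. With array medians centred, 5 members were called in SIRT6 WT (Fgb, Fgg and Serpinc1 gained, background 12.3%) and 0 in SIRT6 KO (Fga and Serpinf2 lost, background 10.2%; limma, both sets). In the same fits 3 were called in SIRT1 WT (F11, Fga, Fgb and Fgg lost, background 16.6%) and 11 in SIRT1 KO (Masp1, Mbl2 and F7 lost, C8b, C8g, C9 and Fgg gained, background 19.8%). The members' median amplitude was 0.16 and 0.12 in the SIRT6 WT and KO-labelled sets and 0.15 and 0.15 in the SIRT1 sets, beside 0.23, 0.20, 0.21 and 0.22 over all genes.

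Serpinf2 peaked in the light phase in all 4 sets. In SIRT1 WT livers it was at 12.62 ± 0.11 (SD, n = 3) at ZT8 and at 12.16 ± 0.07 (n = 3) at ZT16, with no overlap between these groups' mean ± SD ranges. Its amplitude was 0.26 and 0.28 in the SIRT6 WT and KO-labelled sets and 0.44 and 0.34 in the SIRT1 sets (limma adjusted p = 0.0119, 0.00347, 0.000522 and 0.00278). The fitted peaks were at ZT 3.66, 5.37, 5.34 and 5.40 in the same order. Without the 12 arrays high in Lcn2 the SIRT6 WT rhythm kept its amplitude of 0.26 and did not pass the test (limma adjusted p = 0.108).

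Fga peaked near lights on in all 4 sets. In SIRT6 WT livers it was at 12.27 ± 0.08 (SD, n = 3) at ZT20, at 12.26 ± 0.10 (n = 3) at ZT0 and at 11.94 ± 0.17 (n = 3) at ZT12. Its amplitude was 0.36 and 0.33 in the SIRT6 WT and KO-labelled sets and 0.29 and 0.20 in the SIRT1 sets (limma adjusted p = 0.0192, 0.0276, 0.0073 and 0.0437), with peaks at ZT 23.5, 0.69, 1.72 and 1.07. The SIRT6 WT and KO-labelled calls were lost without the 12 arrays high in Lcn2, where the amplitudes were 0.23 and 0.22 (limma adjusted p = 0.105 and 0.118). The SIRT6 KO call was also lost without ZT0 replicate 1, ZT12 replicate 1 or ZT12 replicate 2 (limma adjusted p up to 0.0579), and the SIRT1 KO call without any of 11 of 18 arrays (up to 0.0829).

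The other fibrinogen chains ran close to Fga in time. In SIRT1 WT livers Fgg had an amplitude of 0.22 with a peak at ZT 2.91 and Fgb had 0.23 with a peak at ZT 3.99 (limma adjusted p = 0.00459 and 0.0125). Neither passed the test in the other 3 sets, where Fgg amplitudes ran from 0.13 to 0.26 and Fgb amplitudes from 0.10 to 0.22.

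Mbl1, a mannose-binding lectin, peaked around the end of the dark phase. In SIRT1 KO-labelled livers it was at 11.17 ± 0.07 (SD, n = 3) at ZT0 and at 10.42 ± 0.35 (n = 3) at ZT12, which gave the largest amplitude of any member, 0.74 with a peak at ZT 23.7 (limma adjusted p = 0.000292). In SIRT1 WT livers the amplitude was 0.49 with a peak at ZT 23.7 (limma adjusted p = 0.0034). In the SIRT6 cohort it was 0.33 and 0.35 in WT and KO-labelled livers and was not called (limma adjusted p = 0.075 and 0.0947).

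F11 peaked in the light phase and was called in the SIRT1 cohort, with amplitudes of 0.50 in WT and 0.67 in KO-labelled livers and peaks at ZT 5.36 and 5.87 (limma adjusted p = 0.03 and 0.00162). The WT call was lost without any of 5 of 18 arrays, namely ZT4 replicates 2 and 3, ZT8 replicate 2 and ZT16 replicates 1 and 2 (limma adjusted p up to 0.0684). In the SIRT6 cohort the amplitudes were 0.61 and 0.60, as large as in the SIRT1 cohort, but the spread between arrays was wider and they were not called (limma adjusted p = 0.208 and 0.281). Without the 12 arrays high in Lcn2 the KO-labelled amplitude was 0.39 and passed the test (limma adjusted p = 0.0472).

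Several members were called in the SIRT1 KO-labelled set and not in the WT set of that cohort. Mbl2, the second mannose-binding lectin, had an amplitude of 0.48 with a peak at ZT 12.1, opposite in phase to Mbl1 (limma adjusted p = 0.028). F7 had 0.37 with a peak at ZT 13 (limma adjusted p = 0.0294) and C6 had 0.28 with a peak at ZT 23 (limma adjusted p = 0.0404). F5, Masp1 and F9 were called there too, with amplitudes of 0.24, 0.23 and 0.16 and peaks at ZT 9.85, 8.83 and 23.2. Proc, protein C, was called in SIRT1 WT alone, at 0.17 with a peak at ZT 9.47. The calls in the KO-labelled set for F7, C6, Mbl2 and F9 were lost without any of 5, 11, 4 and 10 of the 18 arrays (limma adjusted p up to 0.0832, 0.0828, 0.0852 and 0.0964), and that of Proc in WT without any of 5 (up to 0.0735).

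The difference in rhythm between genotypes was tested directly. By limma 0 of 35 members passed in the SIRT6 cohort (background 0.00751%) and 0 in the SIRT1 cohort (background 0%). At an unadjusted p under 0.05 the counts were 0 and 1 (Cfi), beside 8.25% and 7.25% of all genes. The calls in 1 genotype and not the other are therefore not shown to differ between genotypes.

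**Figure D3:**
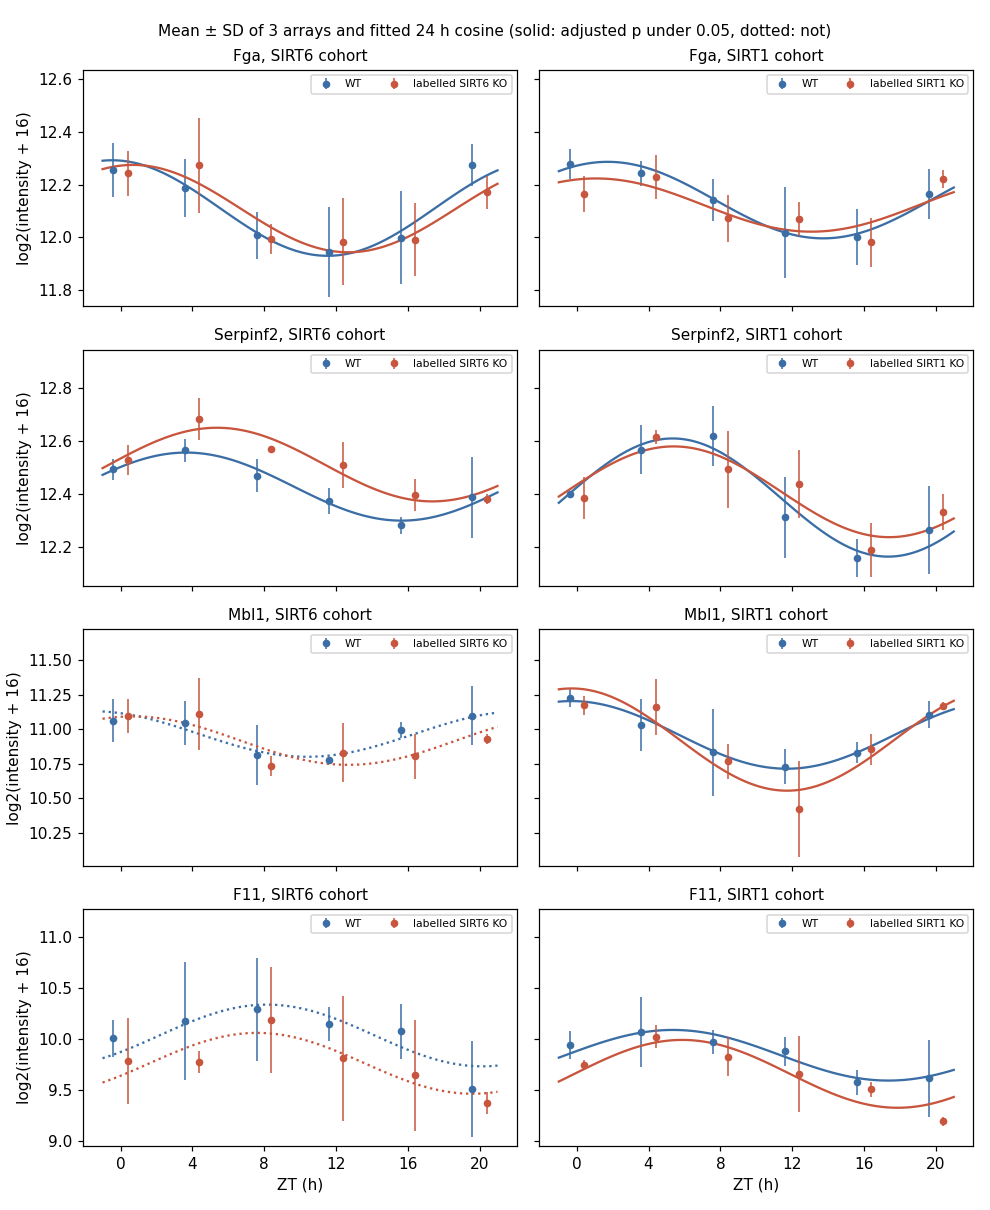
Mean ± SD of 3 arrays (log2(intensity + 16)) against ZT in hours for Fga, Serpinf2, Mbl1 and F11 in the SIRT6 cohort (left) and SIRT1 cohort (right), with the fitted 24 h cosine for WT (blue) and KO-labelled livers (red), solid where the adjusted p was under 0.05 and dotted otherwise. Fga and Serpinf2 have solid curves in all 4 sets, with peaks near lights on and in the light phase, while Mbl1 and F11 have solid curves in the SIRT1 cohort.

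Neighbouring members were then compared across arrays after each group's mean was removed, to see whether they varied together. There were 9 pairs on shared chromosomes in 2 cohorts, so 18 correlations, each with a two-sided permutation within groups (100000 resamples) and Benjamini-Hochberg adjustment over the 18. The points share arrays, RNA and scaling, so a correlation describes shared variation in these samples.

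The 3 fibrinogen chain genes, which lie together, varied together in both cohorts. Fga with Fgb had r = 0.758 and rho = 0.786 in the SIRT6 cohort and r = 0.793 and rho = 0.794 in the SIRT1 cohort (36 arrays each, permutation p = 2e-05 for each, adjusted p = 6e-05), and r = 0.712 and 0.731 without the 2 arrays farthest from the median of Fga. Fgb with Fgg had r = 0.837 (rho = 0.839) and 0.831 (rho = 0.807), each with the smallest p these permutations can give, 1e-05 (adjusted p = 4.5e-05), and 0.813 and 0.792 without the farthest 2. Fga with Fgg had r = 0.827 (rho = 0.838, permutation p = 1e-05 and 2e-05) in the SIRT6 cohort and 0.659 (rho = 0.601, permutation p = 0.00166 and 0.00308) in the SIRT1 cohort.

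These correlations in the SIRT6 cohort were also computed without the 12 arrays high in Lcn2, over the 21 arrays in 9 groups that kept 2 or more arrays. Fgb with Fgg held at r = 0.785 (permutation adjusted p = 0.0103). Fga with Fgb was at 0.739 and Fga with Fgg at 0.629, and neither passed (permutation adjusted p = 0.0729 and 0.127), the latter falling to 0.370 without the farthest 2 arrays.

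C2 and Cfb, which lie side by side, fell into the clusters described above in the SIRT6 cohort, so no correlation over all 36 arrays is given. Over the 21 arrays outside the cluster r was 0.837 and rho was 0.884 (permutation p = 0.00053 and 0.00077, adjusted p = 0.00318), and r was 0.845 without the 2 farthest. Inside the cluster only 3 groups kept more than 1 array, and the relation could not be tested. In the SIRT1 cohort r was 0.528 and rho was 0.545 (36 arrays, permutation p = 0.0363 and 0.00979, adjusted p = 0.0545 for r and 0.016 for rho). For C2 with Cfb there, leaving out 1 array moved r from 0.326 (without WT ZT20 replicate 2) to 0.706 (without KO ZT12 replicate 1), with permutation adjusted p from 0.193 to 0.00688.

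Other pairs depended more on the arrays used. C8a with C8b, the adjacent genes of the alpha and beta chains of C8, had r = 0.445 in the SIRT6 cohort (rho = 0.455, permutation p = 0.0103 and 0.0156, adjusted p = 0.0184) and 0.800 without the 12 arrays (permutation adjusted p = 0.0112). The call over the 36 arrays was lost without KO ZT4 replicate 1 (r = 0.398, permutation adjusted p = 0.0545). C8a with C8b had r = 0.457 in the SIRT1 cohort (permutation adjusted p = 0.0743), from 0.326 to 0.601 with each array left out, and it passed without KO ZT12 replicate 1 or 2. F7 with F10, which are adjacent, had r = -0.028 over the 36 arrays of the SIRT6 cohort (permutation adjusted p = 0.878). Without the 12 arrays high in Lcn2 it was 0.823 with rho = 0.812 (permutation p = 0.00268 and 0.00458, adjusted p = 0.00804), and 0.813 without the 2 farthest. F7 with F10 had r = 0.394 in the SIRT1 cohort (permutation adjusted p = 0.0612), from 0.241 (without WT ZT12 replicate 1) to 0.489 (without KO ZT12 replicate 2, permutation adjusted p = 0.0149).

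C1ra with C1s1, the genes of the C1r and C1s proteases, depended on them too. Their r was 0.521 over the 36 arrays of the SIRT6 cohort (rho = 0.521, permutation p = 0.0112 and 0.00684, adjusted p = 0.0184), a call lost without WT ZT4 replicate 1 (permutation adjusted p = 0.051) and under quantile normalization (0.0854). It was -0.092 without the 12 arrays (permutation adjusted p = 0.745). In the SIRT1 cohort r was 0.565 (rho = 0.606, permutation p = 0.0012 and 0.00094, adjusted p = 0.00309). C6 with C9, which have 8 coding genes between them, did not pass in either cohort (r = 0.418 and 0.351, permutation adjusted p = 0.0612 and 0.0821), with r from 0.300 to 0.498 and from 0.25 to 0.467 when each array was left out. It passed without WT ZT12 replicate 1 or KO ZT12 replicate 3 of the SIRT6 cohort, and without WT ZT16 replicate 1 or 3 of the SIRT1 cohort. Ahsg with Kng1 had r = 0.443 in the SIRT1 cohort (permutation adjusted p = 0.0184), which turned to -0.254 under quantile normalization, and 0.539 in the SIRT6 cohort (permutation adjusted p = 0.0612). The SIRT6 value fell to 0.0413 under quantile normalization and to 0.310 without KO ZT8 replicate 3, and it passed without KO ZT12 replicate 1 or without KO ZT16 replicate 1 or 2.

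Other genes of the same cascades were read from lists beside the members. Of 20 other complement genes tested, 1 was called under the SIRT6 label and 0 under the SIRT1 label (limma, 4 and 4 at an unadjusted p under 0.05). That gene was Hc, complement C5, which rose by 0.26 (WT 11.33, KO-labelled 11.59, limma adjusted p = 0.0184), while in the SIRT1 cohort it was at -0.09 (limma adjusted p = 0.157). Of 19 other coagulation and fibrinolysis genes, 2 were called in the SIRT6 cohort, both higher, and 0 in the SIRT1 cohort (limma, 5 and 5 at an unadjusted p under 0.05). Tfpi, the inhibitor of the tissue factor and factor VII complex, rose by 0.46 (WT 8.61, KO-labelled 9.07, limma adjusted p = 9.14e-06), and it was at -0.15 in the SIRT1 cohort (limma adjusted p = 0.255). Hgfac, a protease that activates hepatocyte growth factor, rose by 0.34 (limma adjusted p = 0.00191).

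Of 6 genes of the vitamin K cycle and of factor secretion, 1 was lower in the SIRT6 cohort, Vkorc1l1, a paralogue of the vitamin K epoxide reductase, which fell by 0.26 (limma adjusted p = 0.00328). None of the list was called for SIRT1 (limma, 0 also at an unadjusted p under 0.05). Of 12 liver transcription factors, 0 were called in the SIRT6 cohort (limma, 0 also at an unadjusted p under 0.05), and Hlf, a PAR bZIP factor, rose by 0.21 in the SIRT1 cohort (limma adjusted p = 0.0285).

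Lists for inflammation, other cell types and sex-biased expression were read in the same fits, beside the same shares of all genes. Of 25 acute phase genes, 2 were higher in the SIRT6 cohort (Orm3 and Hamp2) and 1 was lower in the SIRT1 cohort (Apcs). Their summed intensity was 57847 to 98452 in SIRT6 WT and 59674 to 128919 in KO-labelled livers, and 49589 to 74679 and 53271 to 77471 in the SIRT1 cohort. Of 11 Kupffer cell markers, 10 had a higher KO-labelled mean in the SIRT6 cohort and 10 a lower one in the SIRT1 cohort, with 0 called in either (limma, 0 and 1 at an unadjusted p under 0.05), and their summed intensity was 1954 to 12284 in SIRT6 WT and 2522 to 14911 in KO-labelled livers. The lymphocyte, neutrophil, stellate, endothelial, bile duct and platelet lists also had 0 genes called in either cohort (limma, 0 and 1 of 25 at an unadjusted p under 0.05), and no erythroid marker had a probe set of its own. Of 10 female-biased genes 3 were higher and 1 lower in the SIRT6 cohort and 0 were called in the SIRT1 cohort (limma, 3 at an unadjusted p under 0.05). Of 16 male-biased genes 2 were higher in the SIRT6 cohort and 1 was lower in the SIRT1 cohort. Their part in the results for the members was not tested.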

How the data were processed

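The series holds 72 mouse liver arrays, grouped by the titles into 2 cohorts, 2 genotypes, 6 times and 3 replicates per group. Per the submitters' processing notes, Affymetrix Expression Console 1.1.1 and PLIER 2.0 were used. The authors deposited linear-scale intensity values for 41345 probe sets, and the sources used here name neither their normalization settings nor a genome build. Probe sets were named through the platform annotation: 23521 had 1 symbol, 1814 several and 16010 none. Values were taken as log2(intensity + 16), and the lowest 40% of 22180 genes by mean (under 6.005) were left out.

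The models were limma fits (version 3.58.1, R 4.3.3) of 12 group means to the 36 arrays of a cohort, with empirical Bayes moderation and an intensity trend. All p-values were adjusted by Benjamini-Hochberg over the 13308 genes tested, at single times over genes and times together, with a threshold of 0.05. Rhythm was a moderated F of a 24 h cosine in each 18 arrays, and the difference between KO effects was fitted over 72 arrays. Correlations used NumPy 2.4.6 and SciPy 1.17.1 in Python 3.11.15. The fits were tested on simulated data.

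The genes, lists and tests were chosen with earlier results of these data known. Members named with values by array were C6, those past the threshold in a genotype comparison, and up to 8 rhythmic members called in the most sets and then by amplitude; other lists name up to 4 called genes. The other members named with values (C2, Cfb, C4bp, C1s1, F5 and F13b among them) fall outside that rule and were chosen after their values were seen. The 12 arrays high in Lcn2 were found in the data, as the upper side of the widest gap that leaves 6 or more arrays on each side, and the fits without them or with them as a block were added after seeing the data. No 2 arrays were identical (0 pairs). Replicate numbers were not taken to pair samples.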

Additional observations from a re-analysis of the deposited data

Results flagged for a closer look

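C6 was picked out because its 2 KO effects differed from each other by a test of the difference: the SIRT6 effect minus the SIRT1 effect was -0.52 ± 0.13 (SE, limma over 72 arrays, adjusted p = 0.0125). The SIRT6 effect in this difference was already known when C6 was chosen, so the difference is a description and no independent test. The KO effect on C6 was -0.50 under the SIRT6 label, where 16 of 18 KO-labelled arrays were below the WT mean of their time, and 0.02 under the SIRT1 label. Targeted gene, strain and cohort cannot be told apart in the difference between these effects. With the 12 arrays high in Lcn2 left out, a subset found after seeing the data, the difference was -0.70.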

How the results depend on the processing

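With 13 alternative settings in the SIRT6 cohort, C6 stayed lower (-0.68 to -0.49) and was below the threshold in all but the stricter one of 0.01 (-0.50, limma adjusted p = 0.0109). Masp1 kept its call under all 13, and F7 lost it without the 12 arrays high in Lcn2. Counts of members called moved as follows (limma). Without those 12 arrays the SIRT6 daily average gave 2 and the SIRT6 WT rhythm 0, and with them as a block the average gave 7 and the SIRT6 KO rhythm 4. With centred array medians the SIRT1 average gave 6 and the difference between KO effects 3. The rhythm then gave 5 in SIRT6 WT, 0 in SIRT6 KO and 3 in SIRT1 WT, beside 12.3%, 10.2% and 16.6% of all genes. With array weights the SIRT6 average gave 8, its single times 8, the SIRT1 average 2, its single times 1 and the difference between KO effects 4. The SIRT6 rhythm with array weights gave 5 in WT and 4 in KO, beside 19.3% and 15.5% of all genes. An F test over the 6 times gave 0, 1 and 1 rhythmic members in SIRT6 WT, SIRT6 KO and SIRT1 WT. The shares of all genes were 3.08%, 3.61% and 9.51%. Leaving out the lowest 60% gave 4 in SIRT6 KO, beside 16.9% of all genes. A fit of all 72 arrays gave 6, 5 and 6 in SIRT6 WT, SIRT6 KO and SIRT1 KO, beside 17%, 16.2% and 21%. At a threshold of 0.01 the averages gave 2 (SIRT6) and 0 (SIRT1), and the difference between KO effects 0. The rhythms at 0.01 gave 0, 1, 4 and 5 in SIRT6 WT, SIRT6 KO, SIRT1 WT and SIRT1 KO. The shares of all genes there were 3.38%, 4.39%, 9.09% and 13%. Leaving out each array in turn gave 1 to 4 rhythmic members in SIRT6 KO, 6 to 13 in SIRT1 KO, and 1 to 2 members for the SIRT1 average. With the 12 arrays as a block, the SIRT6 KO rhythm stood beside 15.1% of all genes. Where no share of all genes is given, a change in the count is not read as particular to the members.

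Signs turned for values that were not called: the difference between KO effects for F7 (-0.0296) and Serpinf2 (-0.021) with centred medians and for F7 without the 12 arrays (-0.0177), and C6 in the SIRT1 cohort with array weights (-0.033) and over fits that each omit 1 array (-0.00452 to 0.0416). The correlation of F7 with F10 in the SIRT6 cohort ran from -0.136 to 0.0775 with each array left out and was 0.823 without the 12; that of C1ra with C1s1 was -0.0922 without the 12; and that of Ahsg with Kng1 in the SIRT1 cohort was -0.254 under quantile normalization. The cause was not tested. With a replicate block the SIRT6 average gave 3 members, as Serpinf2 lost its call (limma adjusted p = 0.0513), and the SIRT1 average gave 1. The numbers were not taken to pair samples, since deviations of same-numbered arrays correlated above 0.1 in only 11 of 18 pairs (SIRT6) and 6 of 18 (SIRT1), and matched best with their own number in 10 and 6. Over 3 arrays per group, and 1 in some groups once the 12 are left out, small differences at single times are the least precise.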
